A study of Homo sapiens with 24 samples.

Results

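The 8 genes described here are grouped as butyrate transporters and receptors: carriers of the monocarboxylate families, a chaperone of such carriers, surface receptors for short-chain fatty acids and an efflux pump. For SLC16A4 the grouping rests on its family, since its substrate is not settled. They are the transporters SLC16A1, SLC16A3, SLC16A4 and SLC5A8, the chaperone BSG, the receptors FFAR2 and FFAR3, and the efflux pump ABCG2. The members were all array probes bearing 1 of these gene names, which gave 9 of the 34127 probes on the array, since FFAR3 had 2. In at least 1 treatment, 4 of the 9 gave a signal well above background on each of its 6 arrays, and these 4 were among the 18984 probes tested. They reported SLC16A1, SLC16A3, SLC16A4 and BSG. The other 5 probes, for SLC5A8, FFAR2, FFAR3 and ABCG2, were too dim to be tested and are given as signals.

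Expression was measured in HCT-116 cells, a human colorectal carcinoma line with constitutive Wnt signaling, on 24 arrays. All the cells came from 1 stably transfected clone that carries the Tet repressor and DN-Tcf4, a dominant negative Tcf4 without the part that binds beta-catenin, under a promoter induced by doxycycline. Cells were given neither agent (Ctl), 5 mM sodium butyrate (NaB), 4 μg/ml doxycycline (Doxy) or both agents (DoxyNaB), with 6 arrays each from 6 experiments. Per the methods, doxycycline came first, and the cotreatment with or without butyrate then lasted 17.5 hr. The study asked which butyrate-induced changes depend on Wnt signaling, so that NaB/Ctl gives the butyrate response and DoxyNaB/Doxy the same response with doxycycline present.

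Butyrate, a short-chain fatty acid made by bacteria from dietary fiber, is the main fuel of colonocytes and an inhibitor of histone deacetylases. At the pH of the gut lumen it is mostly ionized and enters cells on carriers: MCT1 (SLC16A1) and MCT4 (SLC16A3) move monocarboxylates together with a proton, and SMCT1 (SLC5A8) moves them together with sodium. BSG (basigin, CD147) escorts MCT1 and MCT4 to the surface, FFAR2 (GPR43) and FFAR3 (GPR41) are G protein-coupled receptors for short-chain fatty acids, and ABCG2 (BCRP) pumps substrates out of the cell.

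On these arrays 4 of the 9 member probes could be tested for a response to butyrate. SLC16A4, an orphan member of the monocarboxylate transporter family, rose with butyrate 3.62-fold without and 2.12-fold with doxycycline. BSG rose 1.495-fold and 1.58-fold. SLC16A3 rose 1.34-fold in DoxyNaB/Doxy and did not pass in NaB/Ctl, and SLC16A1 did not pass the test in any comparison. The receptors, SLC5A8 and ABCG2 gave signals at or near background on most arrays.

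The probes are shown because the reading of each gene rests on 1 oligonucleotide of 60 bases, or on 2 for FFAR3. For each, 30 bases as printed on the array are given in the direction of the file, with the polyadenylation signal AATAAA in capitals where the probe held it.

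SLC16A1: cttaccttctataaaaatgaggattactgt
SLC16A3: ctggaagatggaAATAAAcctgcgtgtggg
SLC16A4: ccttacttagtgactggaatggtatatgct
BSG: gtctgaagccaatgctgtctggttgcgcca
FFAR3, A_33_P3401753: aaagaccagtgaacactcacagggctgtgg
FFAR3, A_33_P3298810: ttcccattgctcAATAAAtgtggatcatca

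The stretch began at base 26 of the SLC16A3 probe, at base 2 of the second FFAR3 probe and at base 1 of the others. Per the files, which use the coordinates of NCBI36, the probe for SLC16A1 lay at chr1:113256026-113256085 on the minus strand, that for SLC16A3 at chr17:77790577-77790636 on the plus strand, that for SLC16A4 at chr1:110707138-110707197 on the minus strand and that for BSG at chr19:534119-534178 on the plus strand. The FFAR3 probes lay on the plus strand at chr19:40542610-40542668 and chr19:40543140-40543199, and the FFAR2 probe at chr19:40633029-40633088. The remaining members were SLC5A8 at chr12:100074159-100074218 and ABCG2 at chr4:89230527-89230586, both on the minus strand. No gene models of that build were used here, so that exons and untranslated regions were not assigned.

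A level below is the log2 of the signal of a probe over the 75th percentile of its array, which allows arrays to be compared for 1 probe but not 1 gene with another. A probe passed the test at a Benjamini-Hochberg adjusted p under 0.01 in limma over all 18984 probes. In the comparisons with butyrate it was also asked whether the fold was over 2. In experiments 2 to 4, which share a scan date, between 78.4% and 88.1% of spots were well above background. In the others it was between 52.7% and 62.6%. Negative control spots averaged 110.9 to 248.9 in net signal on 5 arrays, namely NaB in experiments 2, 3 and 4 and DoxyNaB in experiments 2 and 4, and at most 79.6 on the other 19. Experiment 1 had its arrays with butyrate on 1 slide and those without on another, scanned on different dates. Slide, scan date and treatment cannot be told apart there. Of 8 epithelial markers, 7 were well above background on all 24 arrays (EPCAM, CDH1, KRT8, KRT18, KRT19, CDX1 and CDX2), and VIL1 was not. Of the 11 fibroblast, leukocyte and endothelial markers, COL1A1 alone was well above background on all of them. AXIN2, a Wnt target, was lower in DoxyNaB than in NaB cells in 6 of 6 experiments (log2 change -2.53, adjusted p from limma 2.64e-11). It was also lower in Doxy than in Ctl cells in 6 of 6 experiments (log2 change -0.58, adjusted p from limma 0.00290). Of the 3 tested probes for TCF7L2, the gene of Tcf4, A_23_P127013 and A_23_P389588 were higher in DoxyNaB than in NaB cells by 4.46 and 2.96. Probe A_33_P3377304 was lower (-1.25), and none of the 3 passed in Doxy/Ctl (adjusted p from limma 0.861, 0.921 and 0.619). The part of DN-Tcf4 that each probe reads was not determined.

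In NaB/Ctl, 2 of the 4 tested member probes passed the test, both higher (BSG and SLC16A4), where 40.0% of all tested probes were higher and 28.2% were lower by the same test. With a fold over 2 as well, 1 was called (SLC16A4, higher), against 31.7% of all in either direction. In DoxyNaB/Doxy, 3 of the 4 passed and were higher (SLC16A3, SLC16A4 and BSG), against 37.3% higher among all, and 1 of these had a fold over 2 (SLC16A4), against 30.6% of all in either direction. None was lower by the test, against 29.7% of all. With 4 probes and such backgrounds, these counts are not a result about the group. The median log2 change of the 4 was 0.38 in NaB/Ctl and 0.54 in DoxyNaB/Doxy, beside 0.17 and 0.10 over all tested probes.

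**Figure D1:**
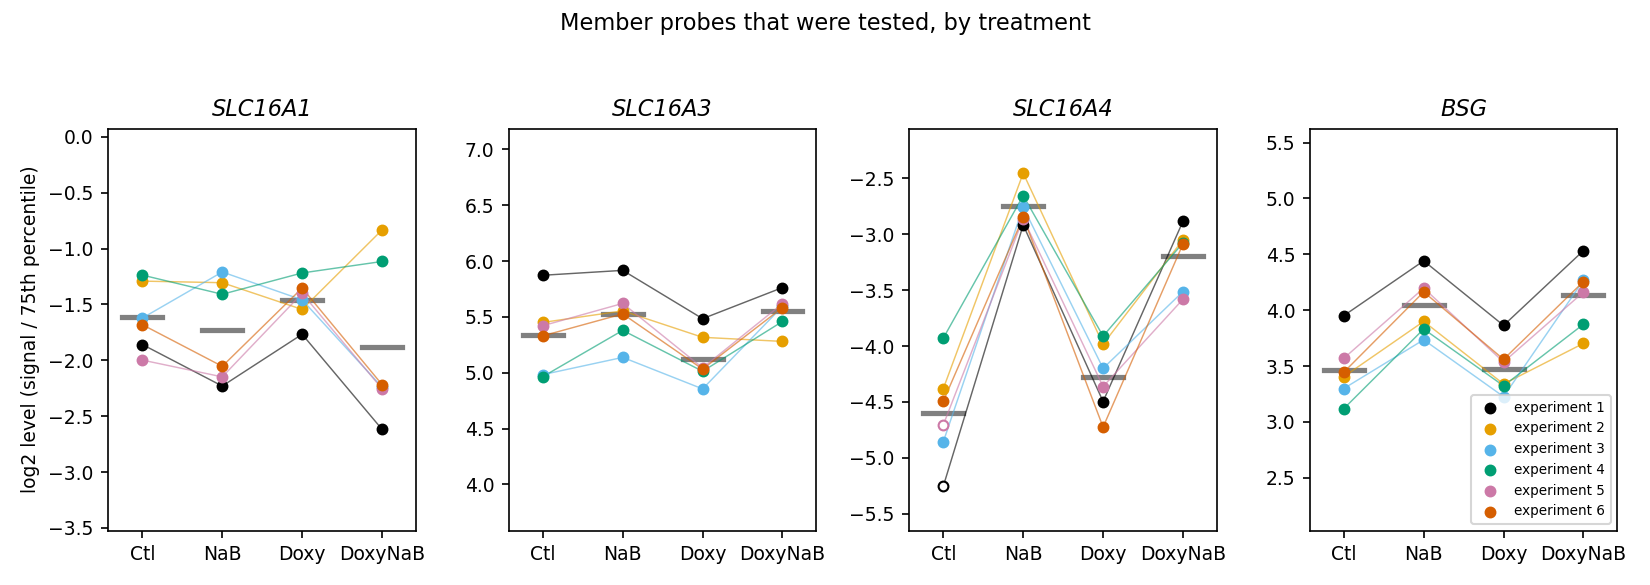
Levels of the 4 tested member probes (log2 of the signal over the 75th percentile of the array) in the 4 treatments, with 1 line for each of the 6 experiments, grey bars for the mean of 6 arrays and open points for arrays on which the probe was not well above background. Every panel spans the same number of log2 units. For SLC16A4 all NaB points lie above all Ctl points and all DoxyNaB points above all Doxy points, and no other panel shows such a separation.

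SLC16A4 (also called MCT5) changed most among the members. Its level on the 6 Ctl arrays ran from -5.25 over a median of -4.60 to -3.93, and on the 6 NaB arrays from -2.92 over -2.80 to -2.45. With doxycycline it ran from -4.73 over -4.28 to -3.91 on the Doxy arrays and from -3.58 over -3.08 to -2.88 on the DoxyNaB arrays. Butyrate arrays lay above those without butyrate in each comparison, with no overlap. The share of all tested probes with such a separation was not determined. The log2 change was 1.86 ± 0.37 in NaB/Ctl (SD over 6 experiments, higher in 6 of 6, adjusted p from limma 2.44e-09) and 1.08 ± 0.43 in DoxyNaB/Doxy (higher in 6 of 6, adjusted p from limma 3.07e-06). Both exceeded the spread between experiments. The order of the treatments by mean level was Ctl, Doxy, DoxyNaB and NaB, and only the step from Doxy to DoxyNaB passed the test among these neighbours.

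The probe was dim. It was well above background on 22 of 24 arrays, the exceptions being Ctl in experiments 1 and 5, and its signal had a median of 30.2 on Ctl and 112 on NaB arrays. The size of the change differed between settings. With normexp background correction, which adds an offset of 50, NaB/Ctl was 0.55 (adjusted p from limma 0.0664), and with quantile normalization it was 0.59 (adjusted p from limma 0.118). DoxyNaB/Doxy was 0.82 with normexp (adjusted p from limma 0.00775), 0.19 with quantile normalization (adjusted p from limma 0.614) and 0.52 with scaling to the median (adjusted p from limma 0.0540). Over all alternatives adjusted p ran from 2.63e-09 to 0.118 in NaB/Ctl and from 3.24e-06 to 0.614 in DoxyNaB/Doxy.

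Within experiments 2 to 4, which share a scan date, the SLC16A4 changes were 1.77 and 0.82. Within experiments 5 and 6, which share another, they were 1.75 and 1.21, and each of these changes passed the test. The DoxyNaB/Doxy change fell under a fold of 2 without experiment 1 (0.98), without experiment 6 (0.97) and within experiments 2 to 4. Without the 5 arrays of highest negative controls, which include every NaB array of experiments 2 to 4, the SLC16A4 change was 1.92 in NaB/Ctl and 1.21 in DoxyNaB/Doxy, both still called.

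The butyrate response of SLC16A4 was larger without doxycycline by 0.77 on the log2 scale (95% confidence interval 0.33 to 1.22), in 6 of 6 experiments. This difference had an unadjusted p of 0.00178 and an adjusted p of 0.0688 from limma over all probes and did not pass. It was -0.27 with normexp background correction (adjusted p from limma 0.720), and its adjusted p was 0.983 with median scaling. Between DoxyNaB and NaB the log2 difference was -0.45 ± 0.31 (lower in 5 of 6 experiments, adjusted p from limma 0.107), and between Doxy and Ctl it was 0.32 ± 0.38 (higher in 5 of 6, adjusted p from limma 0.374).

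BSG, the chaperone of MCT1 and MCT4, gave a bright and steady signal. Its level ran from 3.12 over a median of 3.42 to 3.95 on Ctl arrays and from 3.73 over 4.03 to 4.44 on NaB arrays. On Doxy arrays it ran from 3.23 over 3.44 to 3.86, and on DoxyNaB arrays from 3.703 over 4.21 to 4.53. The groups overlapped, but in each experiment the arrays with butyrate were higher than their partners. The log2 change was 0.58 ± 0.12 in NaB/Ctl (SD over 6 experiments, higher in 6 of 6, adjusted p from limma 2.30e-06) and 0.66 ± 0.22 in DoxyNaB/Doxy (higher in 6 of 6, adjusted p from limma 4.86e-07). Both were larger than the spread between experiments and smaller than a fold of 2.

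The butyrate responses of BSG with and without doxycycline differed by -0.08 on the log2 scale (95% confidence interval -0.31 to 0.15, adjusted p from limma 0.852). In experiments 2 to 4 alone the NaB/Ctl change was 0.55 (adjusted p from limma 0.0112), and in experiments 5 and 6 it was 0.67 (adjusted p from limma 0.00188). Scaling to the median turned the direction in NaB/Ctl (-0.17, adjusted p from limma 0.517) and left 0.10 in DoxyNaB/Doxy (adjusted p from limma 0.715). That scaling moved the median of all tested probes to -0.58 and -0.46 in these comparisons, so that relative to other probes BSG stood higher under it too.

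SLC16A3 (MCT4), the proton-coupled carrier best known for lactate export, had a high signal on every array, from 17280 to 51397. Its level ran from 4.96 over 5.38 to 5.87 on Ctl arrays, from 5.14 over 5.54 to 5.92 on NaB arrays, from 4.85 over 5.04 to 5.48 on Doxy arrays and from 5.28 over 5.59 to 5.76 on DoxyNaB arrays. All 4 groups overlapped. In NaB/Ctl the log2 change was 0.19 ± 0.13 (higher in 6 of 6 experiments, adjusted p from limma 0.0772), with a 95% confidence interval from -0.01 to 0.38. In DoxyNaB/Doxy it was 0.43 ± 0.27 (higher in 5 of 6, adjusted p from limma 0.000439).

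For SLC16A3 the test of the difference between both responses gave -0.24 (95% confidence interval -0.52 to 0.03, adjusted p from limma 0.4997). The DoxyNaB/Doxy change did not pass with normexp (0.24, adjusted p from limma 0.0912), without the block for experiments (adjusted p from limma 0.0153) or in experiments 2 to 4 alone (0.38, adjusted p from limma 0.0647). It did not pass either with the paired t-test of the methods (adjusted p = 0.0211) or with the arrays of both treatments alone (adjusted p from limma 0.0103). The NaB/Ctl change passed with normexp (0.50, adjusted p from limma 0.00191) and with quantile normalization (0.27, adjusted p from limma 0.00233). With median scaling the changes were -0.56 and -0.13, and neither passed.

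SLC16A1 (MCT1), the main carrier of butyrate into colonocytes, was well above background on every one of the 24 arrays. Its level ran from -1.998 over -1.65 to -1.24 on Ctl arrays and from -2.23 over -1.73 to -1.21 on NaB arrays. On Doxy arrays it ran from -1.77 over -1.43 to -1.22, and on DoxyNaB arrays from -2.62 over -2.23 to -0.83. The groups overlapped throughout, and the DoxyNaB arrays were the most scattered, with an SD of 0.72 against 0.19 on Doxy arrays. The log2 change was -0.11 ± 0.29 in NaB/Ctl (lower in 5 of 6 experiments, adjusted p from limma 0.589), with a 95% confidence interval from -0.49 to 0.27. In DoxyNaB/Doxy it was -0.42 ± 0.67 (lower in 4 of 6, adjusted p from limma 0.0440), with an interval from -0.81 to -0.04.

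The DoxyNaB/Doxy difference of SLC16A1 was 0.011 within experiments 2 to 4 and -0.86 within experiments 5 and 6, where it passed (adjusted p from limma 0.00103). It was 0.71 in experiment 2, whose DoxyNaB array had the highest negative controls, and -0.65 without that experiment (adjusted p from limma 0.00198). The signal of SLC16A1 ran from 371 to 743 on the 5 arrays of highest negative controls and from 85.8 to 477 on the others. Without those 5 arrays the changes were -0.39 in NaB/Ctl (adjusted p from limma 0.00799) and -0.77 in DoxyNaB/Doxy (adjusted p from limma 1.60e-05), both past the test with folds under 2. The 5 include every NaB array of experiments 2 to 4, so that negative controls and experiment cannot be told apart in that NaB/Ctl value. Quantile normalization gave -0.58 and -0.69, and median scaling, with its shift of all probes by -0.58 and -0.46, gave -0.86 and -0.98, all past the test. With normexp neither passed, at -0.29 (adjusted p from limma 0.226) and -0.05 (adjusted p from limma 0.827).

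**Figure D2:**
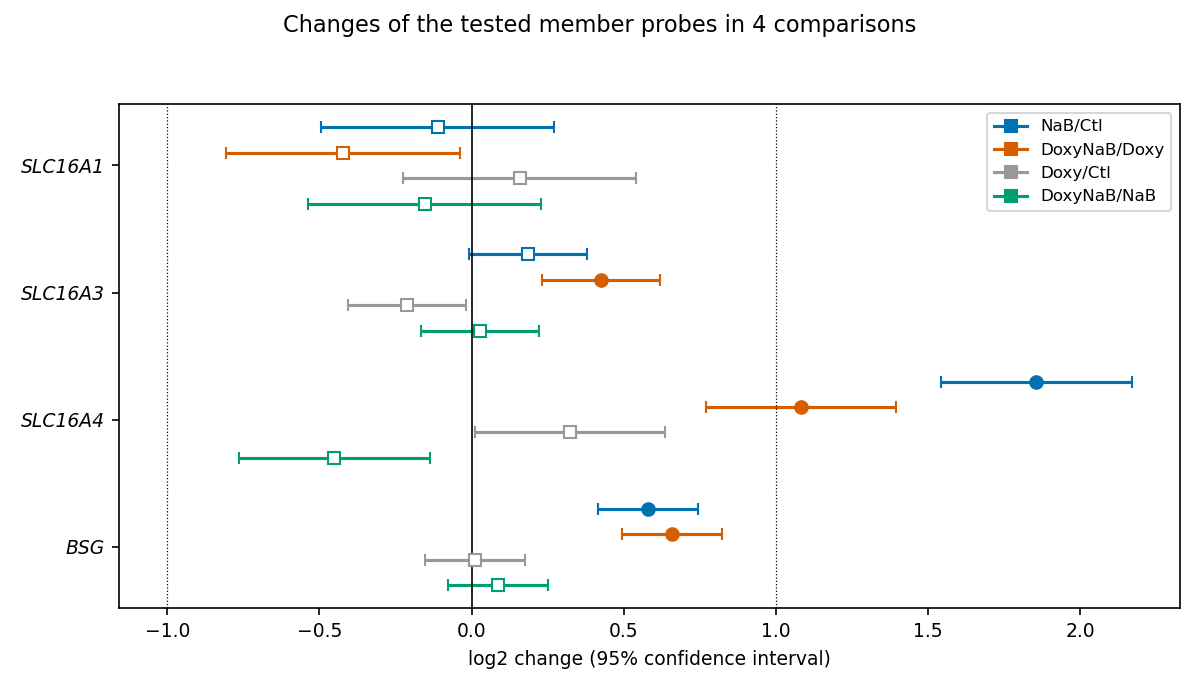
Log2 change of the 4 tested member probes in NaB/Ctl, DoxyNaB/Doxy, Doxy/Ctl and DoxyNaB/NaB, with 95% confidence intervals from limma, filled circles for adjusted p under 0.01, open squares for others and dotted lines at a fold of 2 in each direction. Filled circles stand for SLC16A4 and BSG in both comparisons of butyrate and for SLC16A3 in DoxyNaB/Doxy, and the SLC16A4 points at 1.86 and 1.08 lie beyond the dotted line.

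Doxycycline alone and doxycycline on top of butyrate changed none of the 4 by the test. In Doxy/Ctl 0.411% of all tested probes were higher and 0.0895% lower by the test, and in DoxyNaB/NaB 2.49% passed in either direction. With limma, 2 member probes had an unadjusted p under 0.05 in Doxy/Ctl (SLC16A3 and SLC16A4) and 1 in DoxyNaB/NaB (SLC16A4), and the paired t-test of the methods gave 1 in each. The test of the difference between both butyrate responses, passed by 1.24% of all tested probes, was passed by none. SLC16A4 alone had an unadjusted p under 0.05 there with limma, and it alone with the paired t-test.

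The receptors FFAR2 and FFAR3 and the carriers SLC5A8 and ABCG2 could not be compared between treatments at these signals. The SLC5A8 probe was well above background on 0 of 24 arrays, with signals from 3.29 to 30.9. SLC5A8, the sodium-coupled carrier, is often silenced in colorectal tumors. The FFAR2 probe was well above background on 1 array (DoxyNaB, experiment 3) and its signals ran from 3.05 to 41.0. The ABCG2 probe passed on 6 arrays, with 1 Ctl, 1 NaB, 3 Doxy and 1 DoxyNaB array among them, and its signals ran from 3.87 to 80.5. The software had put a surrogate in place of a signal too close to the negative controls on 20 arrays for SLC5A8, 9 for FFAR2 and 2 for ABCG2. None of these probes met the filter in any treatment, so no fold is given.

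FFAR3, the receptor that couples to inhibitory G proteins, showed a split between arrays of the same treatment. Probe A_33_P3401753 gave signals of 169, 322 and 224 on the NaB arrays of experiments 2, 3 and 4. On those of experiments 1, 5 and 6 the values were 5.01, 3.101 and 3.38, all of them surrogates for a signal too close to the negative controls. On the DoxyNaB arrays it gave 577 and 172 in experiments 2 and 4, and between 3.82 and 12.01 in the other 4. On Ctl arrays it ran from 3.39 to 38.9 and on Doxy arrays from 3.66 to 79.3. The 5 highest signals were thus on the 5 arrays of highest negative controls, where they ran from 169 to 577, against 3.101 to 79.3 on the other 19. This probe was well above background on 8 arrays, namely those 5 and 3 of the other 19. Probe A_33_P3298810 ran from 37.3 to 140 on the same 5 arrays and from 3.13 to 10.2 on the others, and it was well above background on 1 array. Surrogates stood in place of the signal on 11 arrays for A_33_P3401753 and on 17 for A_33_P3298810. The part of the negative controls in this split was not tested.

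**Figure D3:**
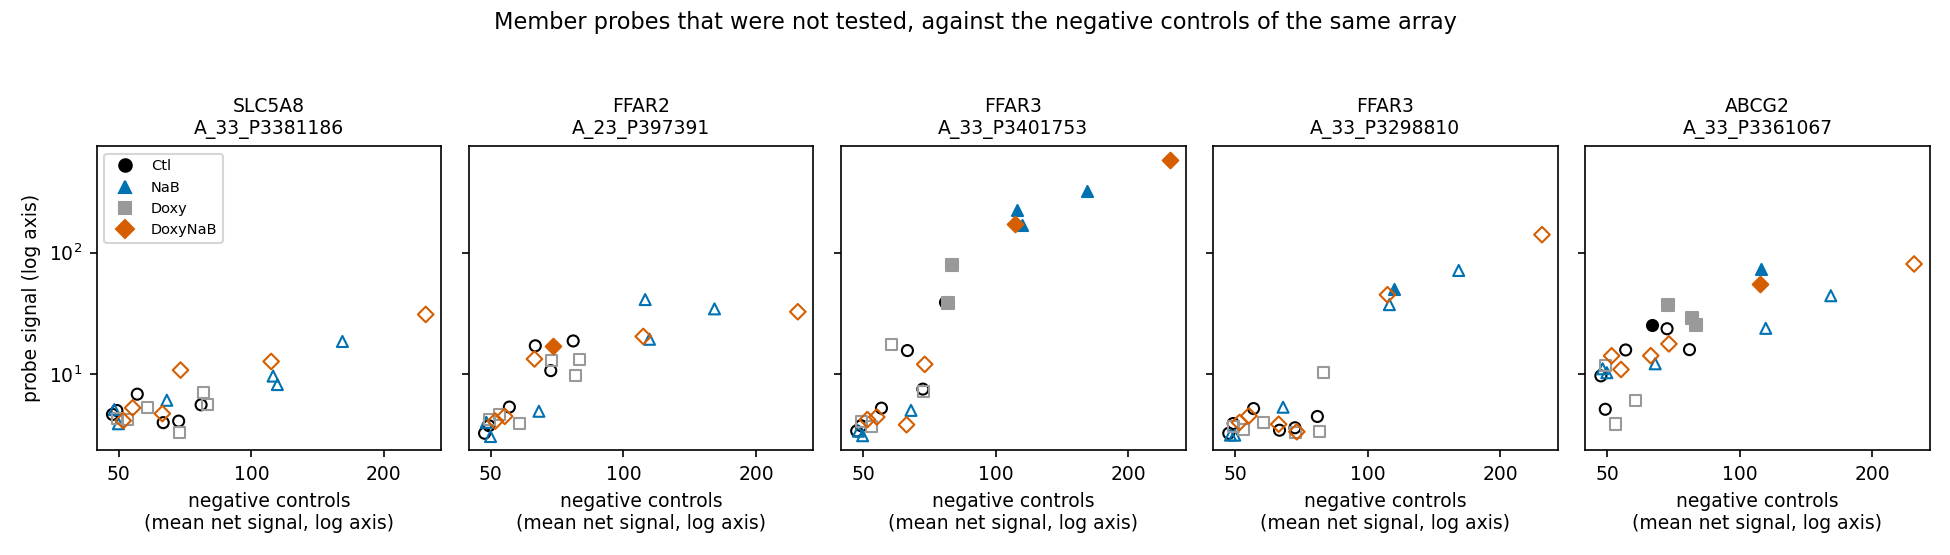
Signal of the 5 member probes that were not tested (log axis) against the mean net signal of the negative control spots of the same array (log axis), with 1 point for each of 24 arrays, symbols by treatment and filled symbols where the probe was well above background. In each panel the 5 arrays with negative controls over 100 carry NaB or DoxyNaB, and for both FFAR3 probes they hold the 5 highest signals.

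All 5 arrays of highest negative controls have the scan date of experiments 2 to 4. On the 7 other arrays of that date, A_33_P3401753 ran from 7.18 to 79.3 and A_33_P3298810 from 3.30 to 10.2, below the lowest of the 5. For the other dim members the median signal on the 5 arrays was 12.7 for SLC5A8, 32.6 for FFAR2 and 54.8 for ABCG2, and on those 7 it was 5.57, 13.1 and 25.4. Only for FFAR2 among these 3 did the ranges of the 5 and the 7 arrays not overlap. The 5 arrays all carry butyrate, and 6 of the 7 do not. FFAR3 also has a near-identical copy in the genome, GPR42, and its probes may not tell both apart. Across the array, 8052 of 34127 probes (23.6%) were well above background on the NaB arrays of experiments 2 to 4 and on none of the other NaB arrays, as was A_33_P3401753, against 17 with the opposite pattern.

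Promoter windows were read for the members that rose in both comparisons of butyrate, since DN-Tcf4 and butyrate both act on transcription. RefSeq windows of 300 bases on GRCh38.p14 were found for 6 of the 8 members, without SLC16A1 and FFAR3. Each window was searched on both strands for the TCF core CTTTGA, the GC box GGGCGG and the E-box CACGTG, which do not overlap in the matches below and are in capitals. Of all 35116 windows, 12.9% held the TCF core, 45.0% the GC box and 7.26% the E-box. The window of SLC16A4, at chr1:110390977-110391276 on the minus strand, held none of these letters, and that of BSG at chr19:572346-572645 on the plus strand held 3 GC boxes and 1 E-box. A further BSG window at chr19:571033-571332 held 1 TCF core. These are matches of letters and not sites of binding.

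SLC16A4: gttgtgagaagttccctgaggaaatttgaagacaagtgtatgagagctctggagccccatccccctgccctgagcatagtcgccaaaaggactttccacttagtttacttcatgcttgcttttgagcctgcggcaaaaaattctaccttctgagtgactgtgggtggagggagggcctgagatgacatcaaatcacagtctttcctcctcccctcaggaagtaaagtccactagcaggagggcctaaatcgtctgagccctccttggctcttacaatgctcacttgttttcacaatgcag
BSG: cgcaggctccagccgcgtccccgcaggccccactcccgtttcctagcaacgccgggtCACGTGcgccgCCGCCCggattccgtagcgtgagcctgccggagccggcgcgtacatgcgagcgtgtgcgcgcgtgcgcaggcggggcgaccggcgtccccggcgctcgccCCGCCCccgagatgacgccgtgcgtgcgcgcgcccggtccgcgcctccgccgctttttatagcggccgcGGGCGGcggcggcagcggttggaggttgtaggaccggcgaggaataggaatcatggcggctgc

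The wider families were followed through 40 related genes, each by its brightest probe, of which 25 could be tested. In NaB/Ctl 10 of the 25 rose and 12 fell by the test, against 40.0% higher and 28.2% lower among all tested probes. In DoxyNaB/Doxy 9 rose and 12 fell, against 37.3% and 29.7%, and the counts of single lists are to be read against the same shares. With a fold over 2, 5 were higher and 7 lower in NaB/Ctl, and 4 higher and 8 lower in DoxyNaB/Doxy, so that 12 were called in each, beside 31.7% and 30.6% of all tested probes. In Doxy/Ctl none passed, with 3 at an unadjusted p under 0.05 in limma and 7 in the paired t-test of the methods.

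Of the other 11 members of the monocarboxylate transporter family, 8 were tested, and 2 rose and 4 fell in each comparison of butyrate. The 4 that fell were SLC16A5 (-2.12 and -2.52 in NaB/Ctl and DoxyNaB/Doxy), SLC16A6 (-2.56 and -3.57), SLC16A9 (-1.87 and -2.27), described as a carnitine transporter, and SLC16A14 (-3.35 and -3.35). Each was lower in 6 of 6 experiments, with adjusted p from limma between 2.05e-15 and 8.53e-06, and each was called under the 4 other scalings tried. SLC16A14 was well above background on 3 of 6 NaB and 4 of 6 DoxyNaB arrays and met the filter through Ctl and Doxy, where it is high, and over the scalings its change ran from -4.10 to -1.91 and from -3.91 to -1.47. SLC16A10, an aromatic amino acid transporter, rose by 1.18 in NaB/Ctl (adjusted p from limma 6.68e-11) and by 0.80 in DoxyNaB/Doxy (adjusted p from limma 1.58e-08). It was lower in DoxyNaB than in NaB cells by 0.37 (-0.37, 6 of 6 experiments, adjusted p from limma 0.00524), a call that none of the 4 other scalings gave, and its NaB/Ctl call was lost with normexp, quantile and median scaling. A dimmer SLC16A10 probe, well above background on 22 arrays, had mean levels of -2.86 on NaB and -2.93 on DoxyNaB arrays. Its means were -4.27 on Ctl and -4.24 on Doxy arrays, so that it was higher with butyrate but hardly differed with doxycycline. SLC16A12 was the other gene that rose, by 0.76 and 0.51 (adjusted p from limma 0.000263 and 0.00716), read from 1 probe well above background on all 24 arrays, while its other probes were so on 3 and 0 arrays and were not tested.

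The ancillary proteins that share the role of BSG went opposite ways. EMB (embigin), the usual partner of MCT2, fell by 2.19 in NaB/Ctl and by 2.28 in DoxyNaB/Doxy (6 of 6 experiments each, adjusted p from limma 4.40e-11 and 2.50e-11). NPTN (neuroplastin) rose by 1.40 and 1.44 (6 of 6 each, adjusted p from limma 9.47e-11 and 6.42e-11). The directions were the same under the 4 other scalings, though NPTN was not called with median scaling. Of the sodium-coupled list only PDZK1, a scaffold that binds transporters at the membrane, was tested. It rose by 1.13 in NaB/Ctl (adjusted p from limma 7.20e-05), was at 0.36 in DoxyNaB/Doxy (adjusted p from limma 0.122), and was not called with normexp, quantile or median scaling, the lowest value being -0.08. PDZK1 was well above background on 4 Ctl, 6 NaB, 6 Doxy and 4 DoxyNaB arrays and met the filter through NaB and Doxy.

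The 7 other receptors for fatty and hydroxy acids were too dim to be tested, among them GPR109A (HCAR2), a further receptor for butyrate, which was well above background on 13 of 24 arrays. Its near-identical copy GPR109B (HCAR3) was on 12. The 4 signalling partners were tested, and by the test 2 rose (ARRB2 and GNAI2) and 2 fell (ARRB1 and GNAQ) in each comparison, none by a fold over 2. These 4 were named after their values were seen.

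Among the efflux pumps related to ABCG2, 6 of 6 were tested. ABCB1 (P-glycoprotein) rose by 2.99 in NaB/Ctl (adjusted p from limma 1.34e-10) and by 2.78 in DoxyNaB/Doxy (adjusted p from limma 3.72e-10). On 4 of 6 Ctl, 5 of 6 Doxy and all NaB and DoxyNaB arrays its signal was well above background, and it met the filter through the treatments where it is high. Over the scalings its change ran from 1.41 to 2.99 and from 1.64 to 2.78. ABCC2 (MRP2) fell by 3.19 and 3.24 (adjusted p from limma 3.10e-13 and 2.32e-13) and ABCC3 (MRP3) by 2.00 and 2.56 (adjusted p from limma 1.39e-07 and 5.14e-09). ABCC4 fell by 0.77 and 1.25 (adjusted p from limma 0.000247 and 9.62e-07), the latter being -0.11 with normexp. ABCC4 was well above background on 5 Ctl, 4 NaB, 6 Doxy and 4 DoxyNaB arrays and met the filter only through Doxy, where its mean level is highest. ABCB1, ABCC2 and ABCC3 moved the same way in 6 of 6 experiments and were called under the 4 other scalings.

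Of the 8 acid-base partners, 4 were tested. SLC26A6, an anion exchanger, rose by 0.85 in NaB/Ctl and by 1.26 in DoxyNaB/Doxy (adjusted p from limma 1.52e-07 and 7.22e-10). Its DoxyNaB/Doxy change ran from 0.70 to 1.35 over the scalings and was not called with median scaling. CA2, a carbonic anhydrase, rose by 0.46 in NaB/Ctl (adjusted p from limma 4.92e-07) and was lower in DoxyNaB than in NaB cells by a log2 change of -0.46 (6 of 6 experiments, adjusted p from limma 2.52e-05), which was not called with normexp or median scaling. SLC26A3 (DRA), the chloride-bicarbonate exchanger of the mature colonocyte, was well above background on 0 of 24 arrays.

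**Figure D4:**
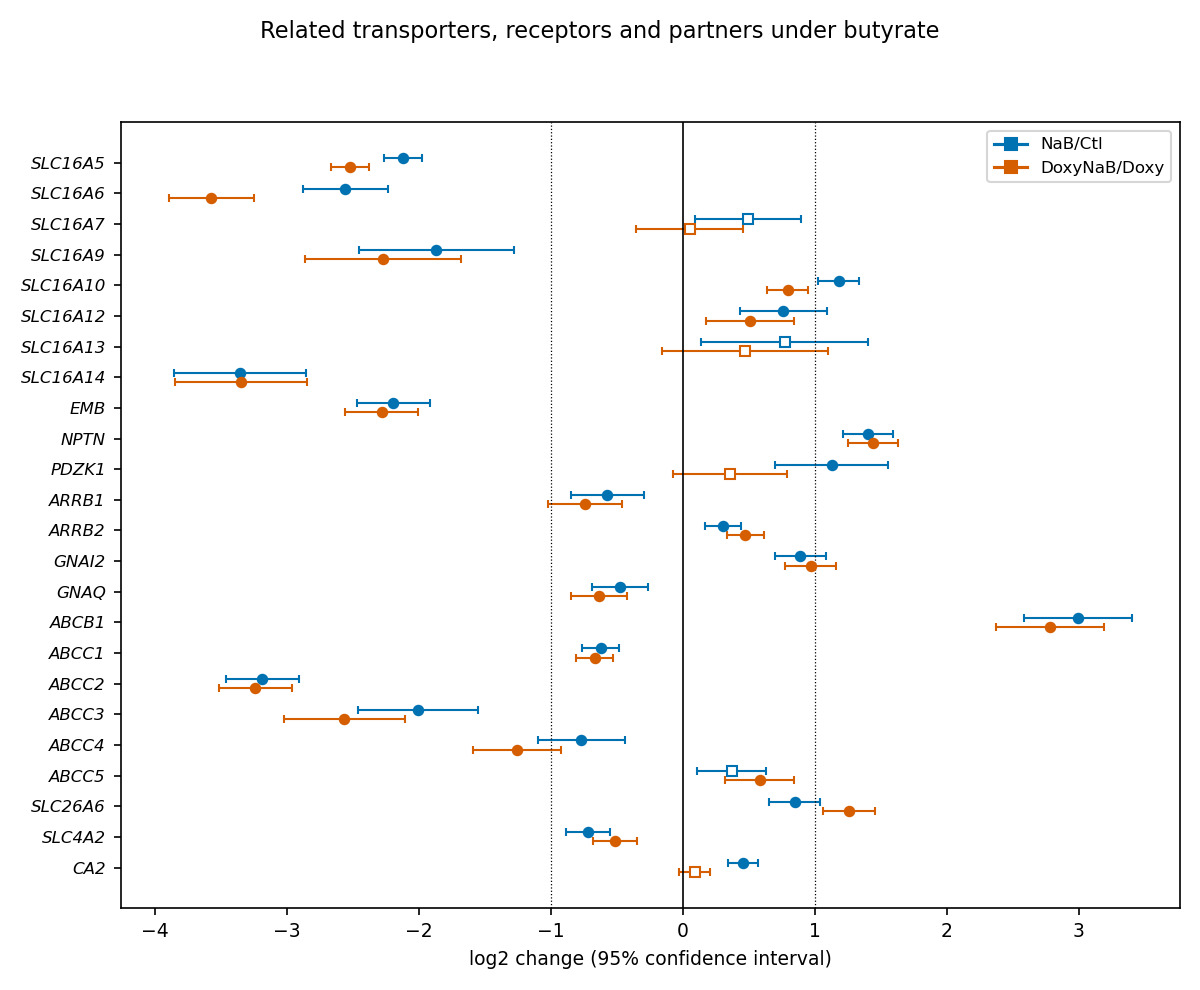
Log2 change of 24 of the 25 related genes that were tested, in NaB/Ctl and in DoxyNaB/Doxy, with 95% confidence intervals from limma, filled circles for adjusted p under 0.01, open squares for others and dotted lines at a fold of 2. SLC16A5, SLC16A6, SLC16A9, SLC16A14, EMB, ABCC2 and ABCC3 lie left of -1 in both comparisons, and NPTN and ABCB1 right of 1.

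As a description, levels over the 24 arrays were centred on the mean of each experiment and compared between genes. SLC16A4 was most like FIGNL1, LNX1 and NOG (Pearson r of 0.97 each) and BSG most like GPAA1, CD81 and CYP27B1 (r of 0.98 each). Such likeness was common, since 1960 tested probes had an r over 0.9 with SLC16A4 and 2580 with BSG. SLC16A3 was most like UBE2J2 (0.95), RELT (0.93) and BLCAP (0.93), and SLC16A1 most like ZNF48 (0.95), CREB3L4 (0.93) and ARNT2 (0.92), with 12 and 4 probes over 0.9. The arrays share slides and scaling, and the probes are not independent.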

How the data were processed

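The deposited files give, for each array, the signal intensity of 44495 spots made by Agilent's Feature Extraction (version 9.5.3.1) per the file headers. Background and the spatial trend of the array had been subtracted by the authors' software, and no scaling between arrays had been applied. The methods name a paired test in GeneSpring. Here, controls were left out, as were 359 to 795 outlier spots per array, and each processed signal was divided by the 75th percentile of its array, between 380.2 and 1323 in signal units, before log2 was taken. Replicated spots were averaged. Signal over background and the 6 arrays per treatment limit the precision. limma 3.58.1 in R 4.3.3 was fitted to all 24 arrays with the experiment as a block, for probes whose signal in some treatment was well above background on its 6 arrays without exception. The experiments are described as biological replicates in the supplement of the study. Levels centred on their treatment correlated within experiments with r from 0.26 to 0.89, except for NaB with DoxyNaB in experiment 3 (r = -0.22). Calls needed an adjusted p under 0.01, and a fold over 2 in the butyrate comparisons. The fit was tested on simulated data, made from probes well above background on all 24 arrays, a set without SLC16A4. The changes planted there were larger than those of BSG and SLC16A3. The members and lists were chosen with earlier results of these data known. Lists were other SLC16 genes, ancillary proteins, sodium-coupled carriers, other receptors and partners, ABC efflux pumps, acid-base partners and cell type markers. Named genes are the members, related genes that were called (up to 5 per list), AXIN2 and TCF7L2, the cell type markers, and the 3 genes most correlated with each tested member. SLC16A12, SLC26A3, GPR109A, GPR109B and the signalling partners were named outside this rule. The values of 1 related gene are not reported here. Python 3.11.15 made tables and plots.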

Additional observations from a re-analysis of the deposited data

Results flagged for a closer look

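Each of 36 sets of 6 arrays (9 member probes in 4 treatments) was checked for 1 array far from the others, and chance marks about 1 in 20 such sets. In 1 set an array stood apart. The SLC5A8 probe had a log2 level of -8.17 on the Doxy array of experiment 3, below the other 5 Doxy arrays by 0.63 of the range of the group. The probe was not well above background on that array or on any other.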

How the results depend on the processing

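The experiment was the replicate block, since the methods name a paired test. Without it, 1 member probe was called in NaB/Ctl and 1 in DoxyNaB/Doxy, as with it, the SLC16A3 change in DoxyNaB/Doxy no longer passed (0.43), and 1 related gene in place of 2 was called in DoxyNaB/NaB. In NaB/Ctl, 0 member probes in place of 1 were called with normexp, with quantile normalization and with the filter for signal on all 24 arrays, which drops SLC16A4. In DoxyNaB/Doxy, 0 in place of 1 were called with normexp, quantile or median scaling, that filter, slide as the block, experiments 2 to 4 alone or the percentile taken over probes, 2 with a fold of 1.5, and 0 to 1 leaving out 1 experiment.

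Of the related genes, 7 in place of 12 were called in each butyrate comparison with the filter on all 24 arrays. In DoxyNaB/NaB, 0 in place of 2 were called with normexp, median scaling, only the arrays compared, the adjusted paired t-test of the methods, experiments 2 to 4 or experiments 5 and 6, 1 with quantile normalization, no filter or the percentile over probes, and 1 to 2 leaving out 1 experiment. In Doxy/Ctl, 4 in place of 0 were called with the unadjusted paired t-test and 1 without the 5 arrays of highest negative controls. For the difference between butyrate responses the count was 0, but 5 with the unadjusted paired t-test, 3 at an adjusted p of 0.05, 1 with quantile normalization, the percentile over probes or without the NaB array of experiment 3 and the DoxyNaB array of experiment 2, and 0 to 1 leaving out 1 experiment.

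Directions turned as follows. With normexp, Doxy/Ctl became -0.036 for SLC16A1, 0.049 for SLC16A3 and -0.11 for SLC16A4, DoxyNaB/NaB became 0.21, -0.21, 0.15 and -0.14 for SLC16A1, SLC16A3, SLC16A4 and BSG, and the difference between butyrate responses became -0.24, 0.26, -0.27 and 0.22. With median scaling, NaB/Ctl became -0.56 for SLC16A3 and -0.17 for BSG, DoxyNaB/Doxy -0.13 for SLC16A3 and Doxy/Ctl -0.076 for BSG. Within experiments 2 to 4, SLC16A1 became 0.076 in NaB/Ctl, 0.011 in DoxyNaB/Doxy and -0.024 in Doxy/Ctl, and within experiments 5 and 6 the difference for BSG became 0.012. With the percentile over probes, Doxy/Ctl for BSG became -0.0039. Leaving out 1 experiment, DoxyNaB/NaB ran from -0.28 to 0.022 for SLC16A1, from -0.058 to 0.088 for SLC16A3 and from -0.0011 to 0.14 for BSG, Doxy/Ctl for BSG from -0.029 to 0.030, and the difference for BSG from -0.13 to 0.028. The cause was not tested.

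Over all tested probes, 65.3% of the 6017 calls in NaB/Ctl were higher, against 53.2% of 3001 with normexp, 43.8% of 5629 with quantile normalization and 21.1% of 7772 with median scaling. In DoxyNaB/Doxy it was 59.9% of 5806, against 42.9% with quantile normalization and 25.01% with median scaling, and in DoxyNaB/NaB 24.8% of 472, against 41.3% of 46 with median scaling and 22.02% of 109 with normexp. In Doxy/Ctl 95 probes were called, against 21 with normexp and 5 with median scaling. The percentile over probes and leaving out the 5 arrays were chosen after seeing the data. The difference between butyrate responses has no value with only the arrays of 2 treatments. Signal over background limits SLC16A4 and leaves the 5 dim probes without a test.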
